A study of Mus musculus with 16 samples.

Results

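The genes of the respiratory chain, from the mitochondrial genome and from the nucleus, were followed across 16 RNA sequencing libraries of mouse leukaemia cells. Members were taken by symbol: mt-, the subunit families Ndufa, Ndufb, Ndufc, Ndufs and Ndufv of complex I, Sdh of complex II, Uqcr of complex III, Cox4 to Cox8 of complex IV and Atp5 of complex V. Symbols marked as pseudogenes were left out, and a mean of at least 50 expected counts (read counts estimated per gene, which need not be whole) over the 16 libraries was required. Of 55487 genes in the table, 148 matched a prefix, 9 were pseudogene symbols and 32 lay under the mean, which left 107 members. They were 13 protein-coding genes and 2 rRNA genes of the mitochondrial genome, 80 nuclear subunit genes and 12 assembly factors. The 37 nuclear subunits of complex I, 4 of complex II, 8 of complex III, 14 of complex IV and 17 of complex V included Ndufa4, which is counted here with complex IV. All 107 members passed the low-count filter and were tested.

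The values just inside the limit were 111 expected counts for Cox7a1, 139 for Sdhaf3 and 152 for Ndufaf6. Just outside were mt-Ts1 at 4.81 and Ndufa4l2 at 4.44. All 22 mitochondrial tRNA genes fell outside, as did Cox6a2 (mean 1.44), Cox4i2 (0.188), Cox7b2 and Cox8c (0.125 each) and Cox8b (0), which are known as isoforms of other tissues or of hypoxia. Ndufb4c stayed in by its symbol although the annotation calls it a processed pseudogene.

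The cells carried CBFB::MYH11, the fusion gene of inv(16) leukaemia, with GFP and a doxycycline-inducible shRNA against MYH11, and grew in congenic mice. Secondary disease (4 libraries) came from spleens of a separate cohort on doxycycline that was followed to signs of fatal disease. Spleen doxycycline and bone marrow doxycycline (3 libraries each) came from mice that drank 3 mg/ml doxycycline in 5% sucrose for 7 days, and spleen control and bone marrow control (3 each) from mice on 5% sucrose for 7 days. GFP-positive cells were sorted in every group, all groups share the fusion, and the sequenced cells were a bulk, so fewer cells of a type and less RNA per cell cannot be told apart. Labels of the controls mention the fusion but no shRNA, although by the design text all transplanted cells were transduced. Doxycycline was not given to cells lacking the shRNA, so the drug and the knockdown cannot be told apart, and secondary disease differs from the 7-day groups also in cohort and time. Replicates are numbered in the titles, which do not say whether each was its own mouse, so p-values reflect the spread between libraries only, which may be technical.

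Totals ran from 12.3 M expected counts (M, mega-counts; secondary disease replicate 4) to 39.4 M (spleen control replicate 3). Of the targeted fusion, the mouse Cbfb gene had a median of 130 CPM (counts scaled by TMM to 1 common library total) in secondary disease, 117 in spleen doxycycline and 90.4 in bone marrow doxycycline, against 131 in spleen control and 127 in bone marrow control. Mouse Myh11 stayed at or under 0.352 CPM in every library, and reads of a MYH11 part in the fusion were not analysed here. Among markers of the sorted cells, Kit, Gfi1b and Cbfb were above 50 CPM in every library, while Cd34 stayed under 1 CPM and Ptprc under 18 CPM. Mpo ran from 0.156 CPM in secondary disease replicate 3 to 57.8 CPM in bone marrow control replicate 1. Secondary disease replicate 4 and the 3 spleen doxycycline libraries stood apart from their groups: chi-square per degree of freedom was 227 to 251 between replicate 4 and the others, and 228 to 495 within spleen doxycycline, against 7.87 to 50.3 within the other 7-day groups. Haemoglobin genes took 4.50 to 5.60% of counts in bone marrow doxycycline and 0.527, 7.15 and 3.73% in spleen doxycycline replicates 1 to 3, against 0.212 to 0.649% elsewhere.

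The chain passes electrons from NADH and succinate to oxygen through complexes I to IV while pumping protons, and complex V, the ATP synthase, uses that gradient to make ATP. Complex II (succinate dehydrogenase) is built from nuclear genes alone, and the other complexes mix nuclear subunits with the few hydrophobic core subunits that the mitochondrial genome still encodes. That circular genome is transcribed into long RNAs that are cut into single messages mostly at the tRNAs, whereas nuclear subunit genes each have a promoter of their own. Oxidative phosphorylation has been studied widely as a need of acute myeloid leukaemia cells.

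A limit of measuring the mitochondrial genes lies in sequence shared with the nucleus. Part of the mitochondrial genome has a copy on chromosome 1 (GRCm38, minus strand), annotated as unprocessed pseudogenes. Of the 13 coding genes, 5 have a copy there over nearly their whole length: mt-Nd4l (Gm10222, chr1:24612407-24612700), mt-Nd3 (Gm28438, chr1:24612775-24613119), mt-Co3 (Gm28437, chr1:24613189-24613971), mt-Atp6 (Gm10925, chr1:24613974-24614651) and mt-Co2 (Gm28661, chr1:24614885-24615565). Aligned lengths were 294, 345, 783, 678 and 681 bases in that order, with 0 mismatches except 1 in the mt-Nd3 copy. The only base by which a read could tell that pair apart is in capitals in the first 60 bases of each, shown 5′ to 3′ from the GENCODE M21 transcripts (mt-Nd3, chrM:9459-9518, plus strand; Gm28438, chr1:24613060-24613119, minus strand).
mt-Nd3: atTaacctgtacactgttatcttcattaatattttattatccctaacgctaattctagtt
Gm28438: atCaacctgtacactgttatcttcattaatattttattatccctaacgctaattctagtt
Counts of the pair were split between both names. The copy held a median of 69.1% of the pair's counts over the 16 libraries (63.5 to 90.4%), 70.3% for mt-Atp6 (51.3 to 76.5%), 65.9% for mt-Nd4l (58.0 to 79.7%), 45.8% for mt-Co3 (38.7 to 50.5%) and 36.7% for mt-Co2 (27.7 to 46.9%). Levels of these 5 genes are therefore uncertain one by one. Of the other 8 coding genes, 2 had similar genes with a mean count of at least 1, which held 0.390% of the summed counts for mt-Nd4 (Gm28439, a copy of part of it) and 0.177% for mt-Co1 (2 genes, Gm29216 the higher). Genes similar to mt-Nd2 and mt-Nd5 had a mean count under 1, and none was found for mt-Nd1, mt-Nd6, mt-Cytb and mt-Atp8. The search covered annotated transcripts only, so a copy without annotation would be missed. This limit bears on mt-Atp8, which lies between mt-Co2 and mt-Atp6 and shares 43 bases with mt-Atp6.

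Neighbouring mitochondrial genes also share bases. The last bases of mt-Atp8 are the first of mt-Atp6, and the 43 shared bases (chrM:7927-7969, plus strand) are shown because counts of the 2 complex V genes touch there, with the start codon of mt-Atp6 in capitals.
Shared bases of mt-Atp8 and mt-Atp6: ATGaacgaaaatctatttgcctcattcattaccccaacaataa
mt-Nd4l and mt-Nd4 share 7 bases, mt-Atp6 and mt-Co3 share 1, and mt-Nd5 shares 14 bases with mt-Nd6 on the opposite strand. The use of strand in counting is not given, and reads of mt-Nd5 and mt-Nd6 in that stretch cannot be told apart. Among nuclear members, Ndufb4 and Ndufb4c split their counts about evenly (Ndufb4c took 49.7% of the pair of Ndufb4), so both are uncertain.

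The 13 mitochondrial coding genes took a mean of 4.73 ± 2.02% of all counts in secondary disease (SD, n = 4), 3.08 ± 1.68% in spleen doxycycline and 2.19 ± 0.242% in bone marrow doxycycline, against 2.36 ± 0.351% in spleen control and 2.71 ± 0.727% in bone marrow control (SD, n = 3 each). By library the share was 5.14, 3.28, 3.07 and 7.42% in secondary disease. Every one of these 4 values lay above the 2.14, 2.76 and 2.17% of the spleen controls. In spleen doxycycline the shares were 2.18, 2.04 and 5.02%, so replicate 3 alone lay above all controls. Bone marrow doxycycline had 2.32, 1.91 and 2.34%, against 2.83, 3.36 and 1.93% in bone marrow control, and the groups overlapped. The libraries were enriched with oligo-dT, so these are shares of captured RNA.

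The 80 nuclear subunit genes together took a smaller and steadier share. It was 1.06, 1.18, 1.14 and 1.46% in secondary disease, 1.32, 1.08 and 1.25% in spleen doxycycline and 1.07, 1.04 and 1.18% in bone marrow doxycycline, against 1.09, 1.17 and 1.13% in spleen control and 1.22, 1.26 and 1.10% in bone marrow control. Each group overlapped its control. The highest nuclear share and the highest mitochondrial share belonged to the same library, secondary disease replicate 4.

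**Figure D1:**
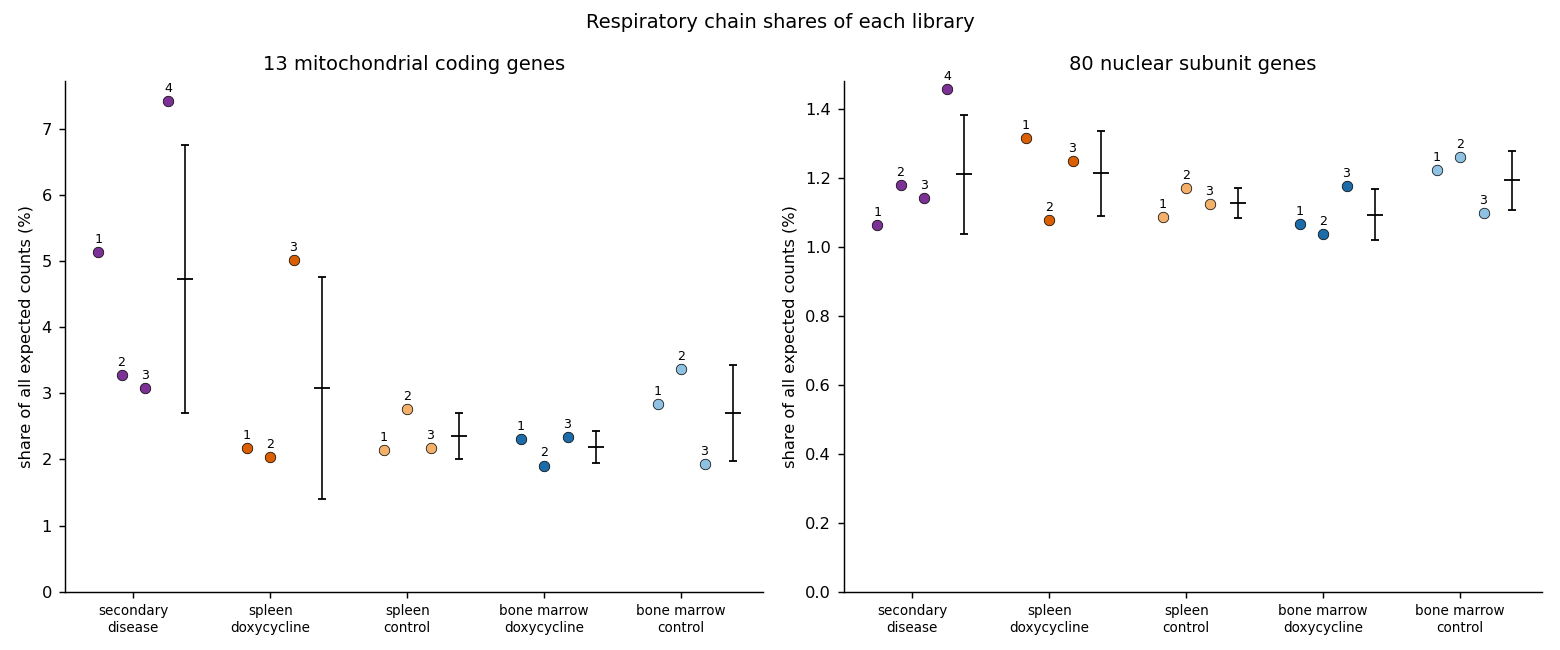
Share of all expected counts (%) taken by the 13 mitochondrial coding genes (left) and the 80 nuclear subunit genes (right) in each library, with replicate numbers; horizontal bars are group means and error bars 1 SD (n = 4 in secondary disease, 3 elsewhere). Mitochondrial shares of secondary disease lie at 3.07 to 7.42%, above the spleen controls at 2.14 to 2.76%, and nuclear shares stay between 1.04 and 1.46%.

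Set on a scale per transcript length, in TPM (the authors' values, scaled to the same total in each library and averaged over the 5 group means), mitochondrial genes stood far above nuclear ones. mt-Atp8, a small subunit of the synthase whose transcript has 204 bases, had 11225 TPM, mt-Co1, the catalytic subunit of complex IV, 10637, mt-Co2, which takes electrons from cytochrome c, 7780, mt-Nd1 of complex I 4913, and mt-Cytb, the cytochrome b of complex III, 4703. The first place of mt-Atp8 depends on how TPM scales so short a transcript. It had a mean of 5647 expected counts, against 288725 for mt-Co1 over 1545 bases, so mt-Co1 had more counts per annotated base. The lowest coding gene was mt-Nd4l at 757.5 TPM, which is a level split with its nuclear copy. Among nuclear subunits the highest of each complex were Ndufa3 (complex I, 371 TPM), Sdha, the catalytic flavoprotein of complex II (187), Uqcr11 (complex III, 508), Cox6a1 (complex IV, 1245) and Atp5b, the catalytic beta subunit of the synthase (1375). Medians of the nuclear subunits were 171 TPM in complex I, 122 in complex II, 346 in complex III, 356 in complex IV and 475 in complex V. Thus even Atp5b had a lower level per length than 10 of the 13 mitochondrial coding genes, and complexes V, IV and III had higher nuclear medians than I and II. Assembly factors were lower, with medians of 20.4 TPM for complex I and 17.1 for complex II.

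Members of the 2 genomes also differed in how much they varied. The median SD of log2 CPM over 16 libraries was 0.63 for mitochondrial coding genes, 0.27 for nuclear subunits and 0.35 for assembly factors. Over the 12 libraries of the 7-day groups it was 0.45, 0.22 and 0.28. The steadiest members were Atp5a1 (the synthase alpha subunit), Sdha and Atp5b, with SDs of 0.10, 0.10 and 0.11 over the 16 libraries. The most variable were mt-Nd3 (0.84), Sdhaf4 (0.84), mt-Atp6 (0.81), Cox6b2 (0.76), mt-Atp8 (0.74), Cox7a1 (0.74) and Atp5e, the synthase epsilon subunit (0.73). Counts of mt-Nd3 and mt-Atp6 are split with nuclear copies, so their SDs also hold the variation of that split. Secondary disease replicate 4 held the highest CPM for 13 of 13 mitochondrial coding genes, 52 of 80 nuclear subunits and 8 of 12 assembly factors, and Atp5e had an SD of only 0.18 over the 7-day libraries.

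**Figure D2:**
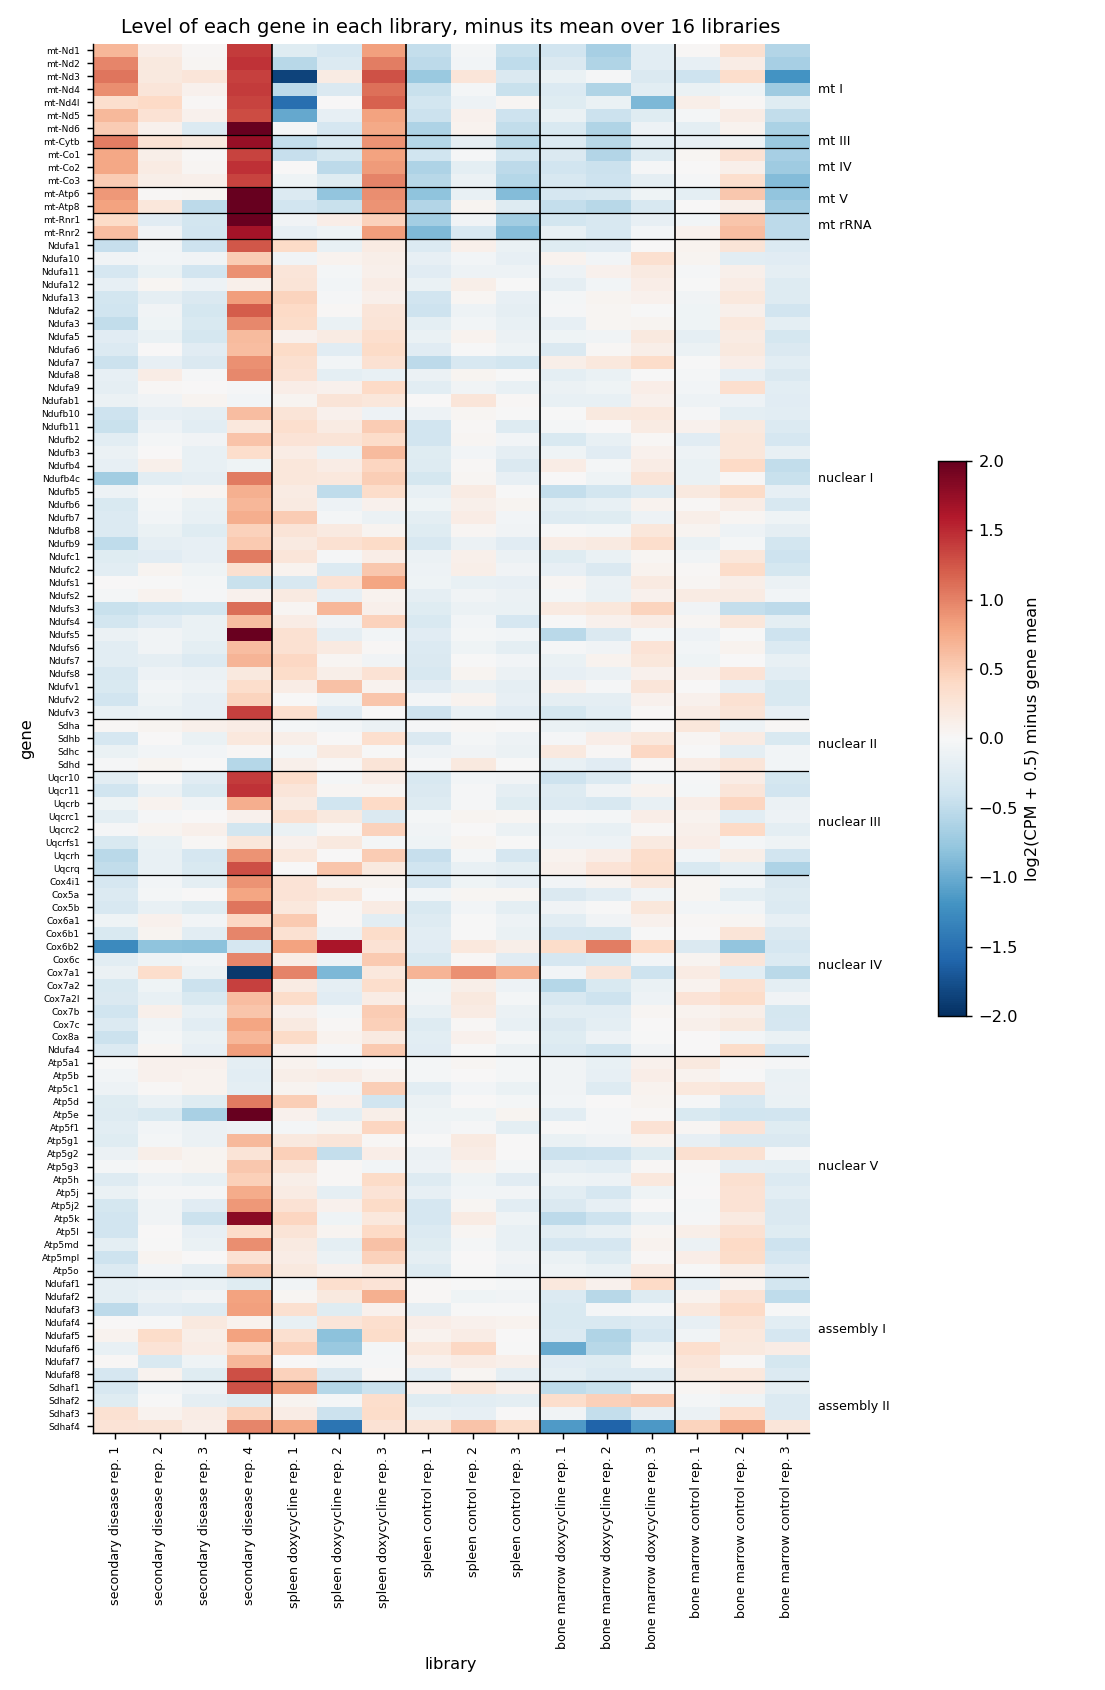
Level of each of the 107 genes (rows, grouped by genome and complex) in each of the 16 libraries (columns), as log2(CPM + 0.5) minus the gene's mean over the libraries; the colour scale ends at 2 log2 units on either side. Mitochondrial rows are red in secondary disease replicates 1 and 4 and in spleen doxycycline replicate 3, while nuclear rows other than Cox6b2, Cox7a1 and Sdhaf4 are red mainly in secondary disease replicate 4.

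The split of counts among the 13 mitochondrial coding genes differed between groups and libraries. mt-Co1 took 36.3 to 38.9% of the counts of the 13 in secondary disease and 40.2 to 41.7% in spleen control. mt-Nd1 took 8.99 to 9.59% in secondary disease and 9.83 to 10.01% in spleen control, so neither gene's shares overlapped between these groups. mt-Cytb took 13.4 ± 0.689% in secondary disease (SD, n = 4), 11.6 ± 0.482% in spleen doxycycline and 11.8 ± 0.151% in bone marrow doxycycline, against 10.9 ± 0.103% in spleen control and 10.5 ± 0.843% in bone marrow control (SD, n = 3 each). The share of mt-Cytb was thus above all spleen controls in every secondary disease library, the lowest of which had 12.8%. Genes that take a small part varied widely: mt-Atp6 took 1.99 to 3.71% in secondary disease and 1.64 to 2.08% in spleen control, and mt-Nd3 0.0909 to 0.361% in spleen doxycycline and 0.211 to 0.313% in spleen control. Both split their counts with nuclear copies, and the split varied too. The copy took 51.3% for mt-Atp6 in secondary disease replicate 4 and 90.4% for mt-Nd3 in spleen doxycycline replicate 1. Summed with its copy, mt-Nd3 had 208 CPM in that spleen doxycycline library, within the spleen controls (165 to 242 CPM).

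In secondary disease against spleen control, which sets end-stage leukaemia on doxycycline beside leukaemia in mice on control water, all 13 mitochondrial coding genes had a positive log2 fold change, but no member of either genome passed the test. Of all 14435 genes tested, 2.03% were called in this comparison (edgeR quasi-likelihood test, Benjamini-Hochberg adjusted p under 0.05). At an unadjusted p under 0.05 there were 14 of 107 members, which is 13.1%, against 15.1% of all genes, so the count was near the background. The 14 were 11 mitochondrial coding genes, both rRNA genes and Cox6b2. limma-voom called 0 members and 2.44% of all genes. DESeq2 called 4 members and 5.24% of all genes; the 4 were mt-Cytb (adjusted p = 0.0102), mt-Atp6 (0.0283), mt-Co2 (0.0308) and mt-Rnr2 (0.0338). Of 8 lists of cell type markers, 2 differed without overlap in this contrast, with every gene of both lists above 0 in each group. The 6 leukaemic blast genes summed to 643 to 823 CPM in secondary disease, against 501 to 532 CPM in spleen control. Gfi1b held most of that sum (437 to 524 CPM, against 300 to 313 CPM). Kit was higher in replicates 1 to 3, but in replicate 4 Kit (54.1 CPM) and Cbfb (72.2 CPM) lay below all spleen controls. The 7 B cell genes summed to 18.0 to 56.4 CPM, against 11.6 to 16.1 CPM, in the same order of groups. Ighm held most of that sum in secondary disease (13.9 to 46.9 CPM, against 2.36 to 8.31 CPM). Cd79a went the other way without overlap (0.781 to 3.30 CPM, against 5.32 to 5.62 CPM). The part of these marker differences in the values of the members was not tested.

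mt-Cytb had 6793, 4118, 3851 and 11223 CPM in secondary disease, against 2261, 2971 and 2286 CPM in spleen control. The groups did not overlap, and replicate 4 was the highest. Its log2 fold change was 1.37 ± 0.39 (SE), with an edgeR Benjamini-Hochberg adjusted p of 0.102. mt-Co1 had 19328, 12262, 11512 and 28647 CPM in secondary disease, against 8520, 11053 and 8770 CPM in spleen control. Here too every secondary disease library lay above every control, although replicate 3 exceeded control replicate 2 only narrowly. Its log2 fold change was 0.92 ± 0.36 (edgeR adjusted p = 0.234).

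By complex, the median log2 fold change of mitochondrial genes in secondary disease against spleen control was 1.02 over the 7 of complex I, 1.37 for the 1 of complex III, 1.02 over the 3 of complex IV and 1.45 over the 2 of complex V. In complex I, mt-Nd2, part of the proton-pumping membrane arm, was at 1.13 ± 0.40, mt-Nd4 at 1.05 ± 0.39, mt-Nd1 at 0.97 ± 0.36 and mt-Nd5 at 0.89 ± 0.37, and mt-Nd6, the one coding gene on the other strand, at 1.26 ± 0.48. mt-Nd3 (1.02 ± 0.56) and mt-Nd4l (0.76 ± 0.47), whose counts are split with nuclear copies, had unadjusted p-values of 0.0898 and 0.129. In complex IV, mt-Co2 was at 1.16 ± 0.37 and mt-Co3 at 1.02 ± 0.37. In complex V, mt-Atp6, the proton channel subunit, was at 1.66 ± 0.55 and mt-Atp8 at 1.25 ± 0.52. None of the 13 passed, with edgeR adjusted p-values of 0.102 to 0.512.

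The value of mt-Atp6 hung on how its reads were shared with Gm10925. It had 1150, 643, 648 and 2926 CPM in secondary disease, against 360, 571 and 344 CPM in spleen control. The copy's share was 51.3% in secondary disease replicate 4, the lowest of all libraries. With both summed, the CPM were 3751, 2355, 2169 and 6008 in secondary disease, against 1419, 1935 and 1465 in spleen control, and the log2 fold change was 1.15 in place of 1.66 (edgeR adjusted p = 0.174). With all 11 similar genes found summed with their mitochondrial genes, 13 of 13 coding genes remained positive, with a median of 1.13 in place of 1.05.

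The difference was not equal between libraries. Against the 3 spleen controls, secondary disease replicate 1 lay above all of them in 13 of 13 mitochondrial coding genes (median log2 difference 1.06), replicate 2 in 12 (0.54), replicate 3 in 9 (0.39) and replicate 4 in 13 (1.76). Nuclear subunits did not follow this order: replicate 1 lay below all controls in 53 of 80 and above all in 4, while replicate 4 lay above all controls in 68 and below in 8. Replicate 2 lay above all controls in 29 and below in 11 nuclear subunits, and replicate 3 above in 12 and below in 21. Without replicate 4 the median of the mitochondrial coding genes was 0.66, still with 13 of 13 positive, and that of the nuclear subunits was -0.05 with 26 of 80 positive, against 0.19 with 70 of 80 positive over all libraries. The median over all genes tested was 0.02.

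The groups of secondary disease and spleen control did not overlap in 14 members (13.1% of 107), against 21.3% of all genes tested. Higher without overlap were 11 members, 8 of them mitochondrial coding genes (mt-Nd1, mt-Nd2, mt-Nd4, mt-Cytb, mt-Co1, mt-Co2, mt-Co3 and mt-Atp6), against 8.85% of all genes. Nuclear subunits by complex had medians of 0.19 (complex I), 0.07 (II), 0.36 (III), 0.24 (IV) and 0.19 (V). Of the abundant nuclear members, Sdha was at 0.09 ± 0.10, Atp5b at 0.00 ± 0.12 and Cox4i1, a regulatory subunit of complex IV, at 0.36 ± 0.24. Atp5e had the largest positive value among nuclear subunits, 1.15 ± 0.64, which came from 1 library: it had 10.8, 10.5, 8.12 and 84.2 CPM in secondary disease, against 12.3, 12.2 and 13.5 CPM in spleen control. Cox6b2 and Cox7a1 were the largest negative ones, at -0.86 ± 0.31 and -1.11 ± 0.55.

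**Figure D3:**
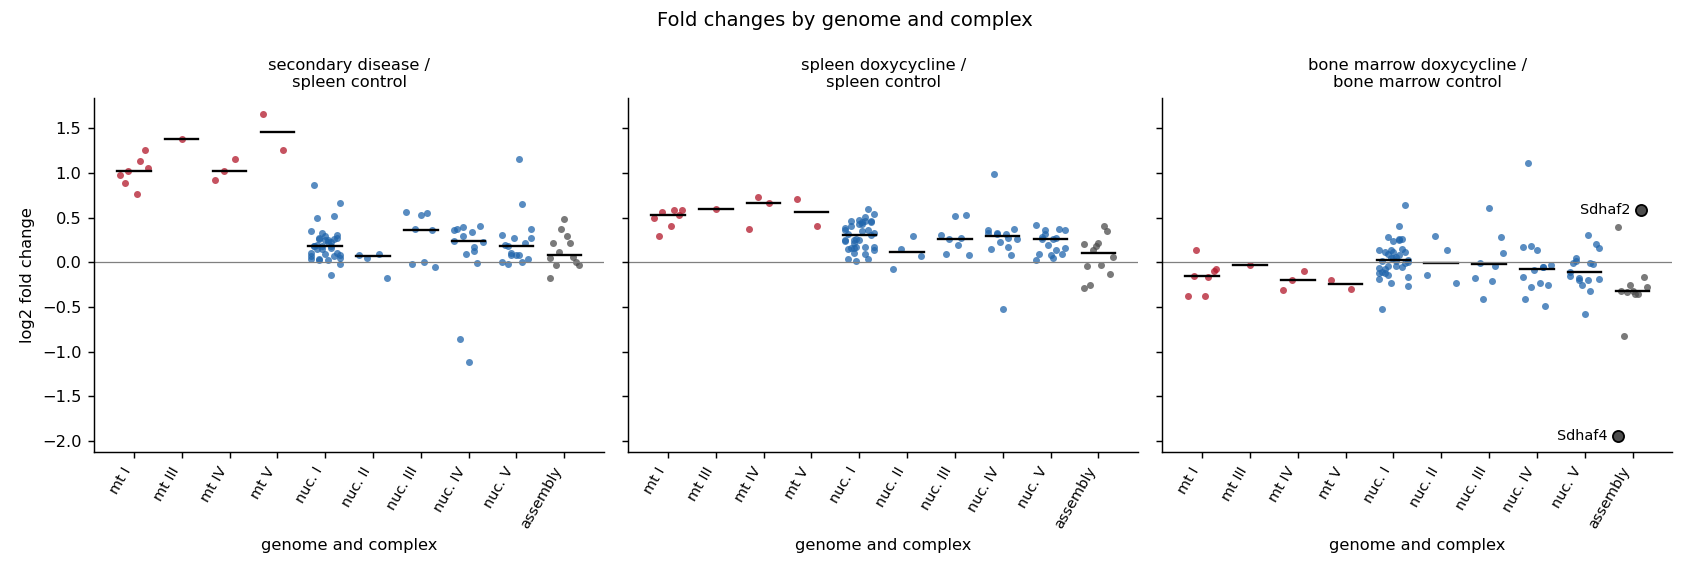
Log2 fold change of each member (points) by genome and complex in 3 comparisons, with black bars at the median of each class; outlined and named points passed the edgeR test at an adjusted p under 0.05. Mitochondrial medians lie at 1.02 to 1.45 in secondary disease against spleen control, and the 2 named points, Sdhaf2 and Sdhaf4, are in bone marrow doxycycline against bone marrow control.

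Spleen doxycycline against spleen control asks how cells of the spleen differed after 7 days of doxycycline, drug and knockdown together. No member passed the edgeR test, and 0.741% of all genes tested were called. There were 8 of 107 members at an unadjusted p under 0.05, against 12.4% of all genes. DESeq2 called 0 members and 4.95% of all genes, and limma-voom 0 members and 0.693% of all genes. All 13 mitochondrial coding genes and 78 of 80 nuclear subunits had a positive log2 fold change, with medians of 0.56 and 0.27, against 0.02 over all genes tested. Nuclear medians were 0.31 for complex I (37 of 37 positive), 0.11 for complex II (3 of 4), 0.27 for complex III (8 of 8), 0.29 for complex IV (13 of 14) and 0.26 for complex V (17 of 17).

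The mitochondrial median rested on 1 library. mt-Co1 had 8184, 8812 and 19724 CPM in spleen doxycycline, against 8520, 11053 and 8770 CPM in spleen control. Only replicate 3 lay above the controls, and replicate 1 lay below them. mt-Cytb had 2406, 2677 and 6246 CPM in spleen doxycycline, against 2261, 2971 and 2286 CPM in spleen control, where replicate 3 alone lay above the controls and the other 2 lay within their range. Replicate 3 lay above all controls in 13 of 13 mitochondrial coding genes (median log2 difference 1.33), replicate 2 in 0 and replicate 1 in 2, with 6 below. Without spleen doxycycline replicate 3 the mitochondrial median was -0.07, with 6 of 13 positive.

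Nuclear subunits were more even across those libraries. Replicate 1 lay above all spleen controls in 69 of 80 nuclear subunits, replicate 2 in 43 and replicate 3 in 61, with median log2 differences of 0.31, 0.14 and 0.29. Under the alternatives run for this comparison, each library left out in turn among them, the nuclear median stayed between 0.21 and 0.36. Groups did not overlap for 35 members (32.7%), against 20.1% of all genes tested, and 33 of these were higher, against 9.34% of all genes. Of the 33, 30 were nuclear subunits, and none was a mitochondrial coding gene. Haemoglobin differed across the same 3 libraries (0.527, 7.15 and 3.73% of counts), and its part in these values was not tested. Of the 8 marker lists, 3 were higher without overlap in spleen doxycycline, each with all its genes above 0 in both groups. The 10 erythroid genes summed to 6294 to 88274 CPM in spleen doxycycline, against 3583 to 5702 CPM in spleen control, the 6 leukaemic blast genes to 718 to 760 CPM, against 501 to 532 CPM, and the 7 B cell genes to 31.0 to 97.3 CPM, against 11.6 to 16.1 CPM, in the same order of groups. Within the blast list Gfi1b (486 to 495 CPM, against 300 to 313 CPM) and Kit were higher without overlap. Cbfb was lower without overlap (54.2 to 119 CPM, against 124 to 144 CPM). Ighm held most of the B cell sum in spleen doxycycline (22.0 to 81.5 CPM, against 2.36 to 8.31 CPM). Cd79a was lower without overlap (0.598 to 5.04 CPM, against 5.32 to 5.62 CPM). The part of these marker lists in the nuclear values was not tested either.

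The members with the smallest p in spleen doxycycline against spleen control were not past the threshold. Ndufb11, an accessory subunit of the membrane arm of complex I, had 118, 104 and 133 CPM in spleen doxycycline, against 71.0, 94.6 and 78.2 CPM in spleen control. The groups did not overlap, and the log2 fold change was 0.54 ± 0.18 (edgeR adjusted p = 0.189). Ndufv1, the subunit that binds NADH and flavin, had 202, 273 and 190 CPM in spleen doxycycline, against 156, 167 and 160 CPM in spleen control, with replicate 2 the highest (0.46 ± 0.18, edgeR adjusted p = 0.269). Cox6b2 (0.99 ± 0.33, adjusted p = 0.193) and Sdhaf2 (0.35 ± 0.13, adjusted p = 0.231) were the other 2.

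In bone marrow doxycycline against bone marrow control, the same 7-day question in the marrow, 2 of 107 members passed the edgeR test, Sdhaf2 higher and Sdhaf4 lower, both assembly factors of complex II. Of all genes tested 6.57% were called, 3.96% higher and 2.61% lower. At an unadjusted p under 0.05 there were 8 of 107 members, against 21.9% of all genes. DESeq2 called 6 members and 13.8% of all genes, and limma-voom 2 members and 6.51% of all genes. Mitochondrial coding genes had a median of -0.17 with 1 of 13 positive, nuclear subunits -0.01 with 35 of 80 positive, and assembly factors -0.32 with 2 of 12 positive, against -0.02 over all genes tested. For mt-Cytb the CPM were 2781, 2293 and 2913 in bone marrow doxycycline, against 2998, 3138 and 2009 in bone marrow control, which overlapped (-0.03 ± 0.40). For mt-Co1 they were 9184, 7546 and 9474 in bone marrow doxycycline, against 11527, 13730 and 7127 in bone marrow control (-0.31 ± 0.38). Groups did not overlap for 19 members (17.8%), none of them mitochondrial, against 47.8% of all genes tested.

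Sdhaf2 attaches the flavin cofactor to Sdha, and Sdhaf4 binds the flavin-bearing Sdha until it joins Sdhb. Sdhaf2 had 84.9, 93.6 and 96.5 CPM in bone marrow doxycycline, against 64.7, 63.0 and 55.3 CPM in bone marrow control. All doxycycline libraries lay above all controls, and Sdhaf2 rose with a log2 fold change of 0.59 ± 0.13 (edgeR Benjamini-Hochberg adjusted p = 0.0182). Sdhaf4 had 3.58, 2.43 and 3.51 CPM in bone marrow doxycycline, against 11.7, 14.9 and 10.1 CPM in bone marrow control. Sdhaf4 fell, without overlap, with a log2 fold change of -1.94 ± 0.45 (edgeR adjusted p = 0.0250). Their client Sdha had 271, 268 and 298 CPM in bone marrow doxycycline, against 348, 278 and 301 CPM in bone marrow control, and did not pass (-0.15 ± 0.11, adjusted p = 0.506).

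Both calls were close to the threshold. Without any 1 of the 6 bone marrow libraries the edgeR adjusted p was 0.0589 to 0.0847 for Sdhaf2 and 0.0571 to 0.116 for Sdhaf4, with log2 fold changes of 0.50 to 0.64 and -2.08 to -1.78 over all alternatives. The other 2 factors of complex II, Sdhaf1 and Sdhaf3, which help to place iron-sulfur clusters in Sdhb, were at -0.33 ± 0.43 and -0.26 ± 0.28 and did not pass. Ndufaf1, a factor of the complex I membrane arm, was at 0.39 ± 0.15 (edgeR adjusted p = 0.136).

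Genes of the cell type marker lists moved with the same contrast. GFP-positive cells were sorted in every group, so other cells and expression by the leukaemia cells themselves cannot be told apart. The 10 genes of an erythroid list, all above 0 in every group, summed to 49474 to 62136 CPM in bone marrow doxycycline, against 3004 to 5231 CPM in bone marrow control. The 8 neutrophil genes, likewise all above 0, summed to 299 to 605 CPM in bone marrow doxycycline, against 810 to 1226 CPM in bone marrow control, and the 6 megakaryocyte genes to 76.5 to 109 CPM in bone marrow doxycycline, against 301 to 379 CPM in bone marrow control. Itga2b held most of the megakaryocyte sum (74.7 to 106 CPM, against 281 to 359 CPM, in the same order of groups). Gp9 of that list was higher without overlap (1.34 to 2.36 CPM, against 0.980 to 1.26 CPM). The 5 stromal and endothelial genes summed to 238 to 250.3 CPM in bone marrow doxycycline, against 165 to 219 CPM in bone marrow control. That rise came mainly from Cxcl12 (194 to 204 CPM, against 106 to 124 CPM). Kdr was lower without overlap (37.8 to 48.0 CPM, against 49.2 to 93.7 CPM). In the spleen, doxycycline replicate 2, whose erythroid sum was 88274 CPM and megakaryocyte sum 24.1 CPM, was also the library with the least Sdhaf4 of its group. The part of these marker differences in the values of Sdhaf2 and Sdhaf4 was not tested.

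The same 2 genes were not called in the spleen. Sdhaf2 had 69.5, 64.7 and 85.6 CPM in spleen doxycycline, against 56.3, 57.5 and 58.3 CPM in spleen control. These did not overlap, but the spread was wide. Sdhaf4 had 14.6, 2.75 and 10.4 CPM in spleen doxycycline, against 10.2, 12.7 and 10.998 CPM in spleen control, so replicate 2 alone lay far below (-0.29 ± 0.44, edgeR adjusted p = 0.880). In secondary disease Sdhaf2 had 56.3, 66.6, 59.0 and 56.4 CPM and Sdhaf4 10.2, 10.2, 9.25 and 17.1 CPM, and both overlapped the spleen controls. The doxycycline effect in spleen minus that in bone marrow was 1.65 ± 0.62 for Sdhaf4 (edgeR adjusted p = 0.479) and -0.24 ± 0.18 for Sdhaf2 (adjusted p = 0.858), so a difference between the tissues did not pass for either.

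**Figure D4:**
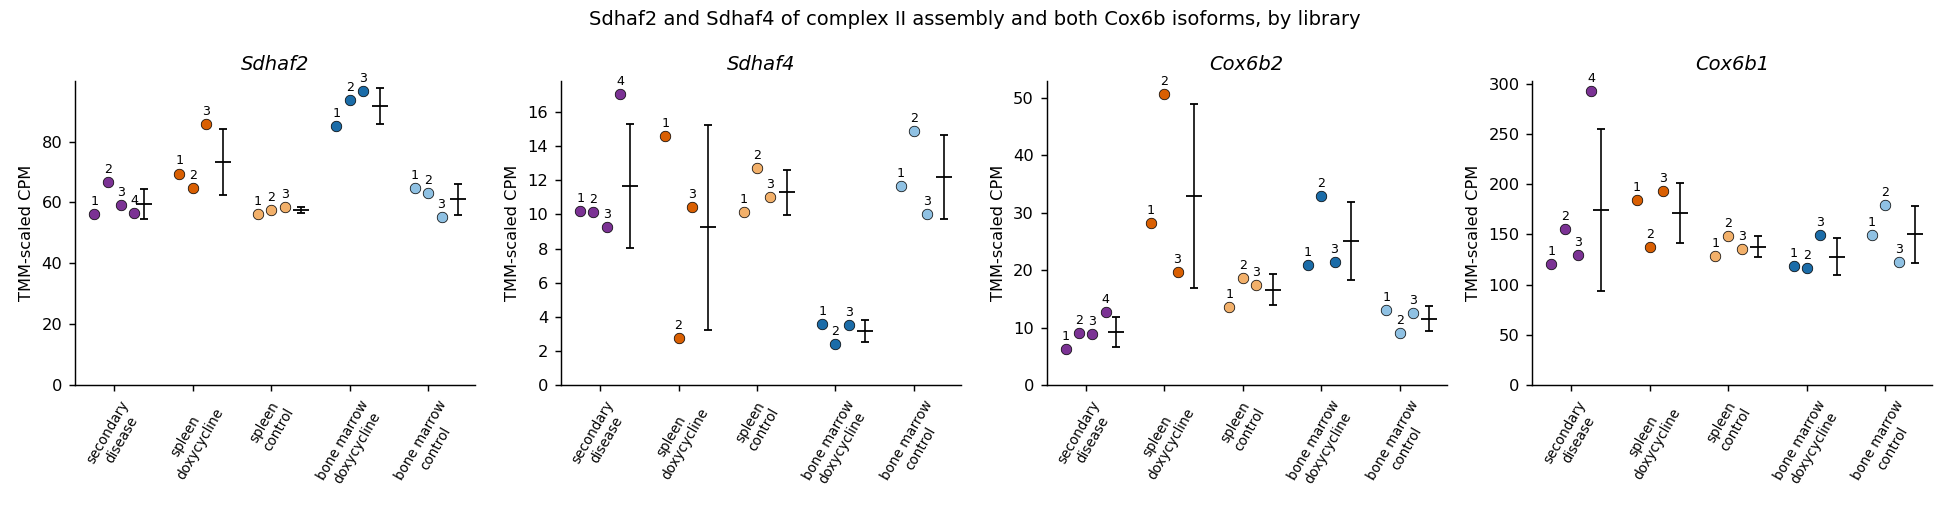
TMM-scaled CPM of Sdhaf2, Sdhaf4, Cox6b2 and Cox6b1 in each library, with replicate numbers, and group means with error bars of 1 SD beside the points (n = 4 in secondary disease, 3 elsewhere). Bone marrow doxycycline lies above bone marrow control for Sdhaf2 (84.9 to 96.5 against 55.3 to 64.7 CPM) and below it for Sdhaf4 (2.43 to 3.58 against 10.1 to 14.9 CPM). Secondary disease has the lowest group mean of Cox6b2.

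The third called member was Cox6b2, known as the testis isoform of the complex IV subunit whose general isoform is Cox6b1. In secondary disease it had 6.33, 8.99, 8.90 and 12.7 CPM, against 28.3, 50.7 and 19.7 CPM in spleen doxycycline. The groups did not overlap. Cox6b2 fell in secondary disease against spleen doxycycline with a log2 fold change of -1.84 ± 0.31 (edgeR adjusted p = 0.0201), the 1 member called there, where 0.928% of all genes tested were called, 0.707% as lower. An unadjusted p under 0.05 was found for 6 members, against 17.4% of all genes. DESeq2 and limma-voom also called 1 member each, against 6 and 0.457% of all genes, and none of the 8 marker lists differed without overlap here. Without spleen doxycycline replicate 2, the library with the most Cox6b2, the log2 fold change was -1.39 (edgeR adjusted p = 0.0634), and the call was also lost without secondary disease replicate 1 (0.0538), 2 (0.0598) or 3 (0.0623).

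Over the 5 groups Cox6b2 had a mean of 9.22 ± 2.60 CPM in secondary disease (SD, n = 4), 32.9 ± 16.0 in spleen doxycycline and 25.1 ± 6.85 in bone marrow doxycycline, against 16.6 ± 2.66 in spleen control and 11.6 ± 2.16 in bone marrow control (SD, n = 3 each). Every doxycycline library lay above every control of its tissue, but neither contrast passed (spleen 0.99 ± 0.33, adjusted p = 0.193; bone marrow 1.11 ± 0.33, adjusted p = 0.0604, both edgeR). Cox6b1 had 120.4, 155, 129 and 293 CPM in secondary disease, against 184, 137 and 193 CPM in spleen doxycycline, and the groups overlapped (0.02 ± 0.26, edgeR adjusted p = 0.977).

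Other isoform families showed no call. Cox7a1, the isoform of heart and muscle, had 3.40, 4.88, 3.40 and 0.607 CPM in secondary disease, against 6.25, 7.47 and 6.38 CPM in spleen control, and did not overlap (-1.11 ± 0.55, edgeR adjusted p = 0.366). Its general counterpart Cox7a2 (0.37 ± 0.36) and the related gene Cox7a2l (-0.01 ± 0.22) overlapped in that comparison. So did Cox4i1 (0.36 ± 0.24), Cox6a1 (0.23 ± 0.17), Cox7b (0.09 ± 0.21), Cox8a (0.12 ± 0.20) and Ndufa4 (0.29 ± 0.25). Of the 3 genes for the c subunit of the synthase ring, Atp5g2 had 182, 183 and 205 CPM in bone marrow doxycycline, against 306, 301 and 241 CPM in bone marrow control (-0.57 ± 0.20, edgeR adjusted p = 0.0986). Atp5g1 was at 0.20 ± 0.19 and Atp5g3 at 0.00 ± 0.16 in that contrast.

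The start-site sequences of the 3 called genes and of Cox6b1 are shown because nuclear subunit genes are known targets of the factors NRF1, GABP (an ETS factor) and YY1. Each runs 5′ to 3′ from 250 bases before to 50 bases after the annotated start (RefSeq, GRCm38.p6, minus strand), with matches to the letters searched in capitals. Coordinates are chr19:10525160-10525459 (Sdhaf2), chr1:24005591-24005890 (Sdhaf4), chr7:4753045-4753344 (Cox6b2) and chr7:30626065-30626364 (Cox6b1).
Sdhaf2 promoter: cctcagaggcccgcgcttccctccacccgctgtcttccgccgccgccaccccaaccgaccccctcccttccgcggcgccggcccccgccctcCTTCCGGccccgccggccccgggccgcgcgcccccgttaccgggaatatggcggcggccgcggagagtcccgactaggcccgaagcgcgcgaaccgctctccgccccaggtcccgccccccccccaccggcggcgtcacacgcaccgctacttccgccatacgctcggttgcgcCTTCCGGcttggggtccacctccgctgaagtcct
Sdhaf4 promoter: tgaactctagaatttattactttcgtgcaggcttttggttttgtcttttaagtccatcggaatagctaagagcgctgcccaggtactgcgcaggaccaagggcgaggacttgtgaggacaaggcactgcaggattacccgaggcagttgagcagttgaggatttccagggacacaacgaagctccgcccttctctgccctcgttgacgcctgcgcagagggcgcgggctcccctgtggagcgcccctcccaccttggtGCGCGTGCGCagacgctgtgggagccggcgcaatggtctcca
Cox6b2 promoter: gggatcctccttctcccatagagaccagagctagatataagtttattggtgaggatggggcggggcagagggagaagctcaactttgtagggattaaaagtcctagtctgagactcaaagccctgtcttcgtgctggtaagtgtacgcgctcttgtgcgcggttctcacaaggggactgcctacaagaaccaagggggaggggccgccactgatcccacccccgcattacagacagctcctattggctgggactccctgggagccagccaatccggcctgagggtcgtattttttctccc
Cox6b1 promoter: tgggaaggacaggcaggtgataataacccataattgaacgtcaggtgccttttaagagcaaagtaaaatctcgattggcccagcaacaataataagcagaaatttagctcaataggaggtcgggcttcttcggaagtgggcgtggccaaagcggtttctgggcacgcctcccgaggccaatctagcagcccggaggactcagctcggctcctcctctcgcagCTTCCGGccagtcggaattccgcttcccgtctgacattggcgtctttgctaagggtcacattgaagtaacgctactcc
The letters searched on both strands were GCGCA and GCGC with any 1 base between them for NRF1, CCGGAAG for ETS factors and AAGATGGCG for YY1, and the 3 do not contain one another. Sdhaf2 had 2 ETS matches, Sdhaf4 had 1 NRF1 match, Cox6b1 had 1 ETS match, and these letters were not in the window of Cox6b2. Of 92 nuclear members 77 were matched in the promoter table. NRF1 letters were in 21 of them (27.3%), against 5.19% of 27025 genes, ETS letters in 22 (28.6%), against 9.93%, and YY1 letters in 8 (10.4%), against 1.64%. At least 1 of the 3 was in 43 members (55.8%), against 15.1% of the 27025 genes. Those genes were taken whether expressed or not, whereas members had to be expressed. The share among expressed genes alone was not computed. A match of letters is a description of the sequence, and binding was not measured.

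In secondary disease against spleen doxycycline, both on doxycycline, the 2 genomes had medians of opposite sign. Mitochondrial coding genes were at 0.54 with 13 of 13 positive, and nuclear subunits at -0.09 with 27 of 80 positive, against -0.01 over all genes tested. No mitochondrial gene passed, and mt-Cytb came nearest at 0.78 ± 0.39 (edgeR adjusted p = 0.315). Without secondary disease replicate 4 the mitochondrial median was 0.18 with 10 of 13 positive and the nuclear median was -0.34 with 2 of 80 positive. Without spleen doxycycline replicate 3 the mitochondrial median was 1.18. Groups did not overlap for 6 members (5.61%), against 7.24% of all genes tested.

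Between tissues no member was called. In spleen control against bone marrow control 0.187% of all genes tested were called, 0 members had an unadjusted p under 0.05, against 6.92% of all genes, and DESeq2 and limma-voom called 0 members, against 2.11 and 1.18% of all genes. Mitochondrial coding genes had a median of -0.13, nuclear subunits -0.09 and all genes -0.01. Groups did not overlap for 7 members (6.54%), against 32.8% of all genes. In spleen doxycycline against bone marrow doxycycline 0.0485% of genes were called, and 6 members had an unadjusted p under 0.05, against 10.9%. DESeq2 called Sdhaf4 alone among members and 3.03% of all genes, and limma-voom 0 members and 0.443% of all genes. Medians there were 0.53 for mitochondrial coding genes and 0.22 for nuclear subunits, with 13 of 13 and 76 of 80 positive, and groups did not overlap for 14 members (13.1%), against 15.5% of all genes; all 14 were higher, as were 5.98% of all genes.

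The doxycycline effect in spleen minus that in bone marrow was tested as an interaction, with 0.0485% of all genes called and 0 members. At an unadjusted p under 0.05 there were 4 members, against 7.63% of all genes, and DESeq2 and limma-voom called 0 members, against 1.73 and 0.236% of all genes. Medians were 0.70 for mitochondrial coding genes (13 of 13 positive) and 0.29 for nuclear subunits (68 of 80), against 0.05 over all genes tested. Without spleen doxycycline replicate 3 the median of the mitochondrial genes minus that of the nuclear subunits was -0.12 in place of 0.41. After Sdhaf4, the members with the smallest p were Atp5g2 (0.65), Atp5c1, the gamma subunit of the synthase stalk (0.52), and Ndufs8, an iron-sulfur subunit of complex I (0.50), with edgeR adjusted p-values of 0.597, 0.602 and 0.644.

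Genes that serve the chain without being members showed 1 call. Of 78 genes of the mitochondrial ribosome, which makes the 13 mitochondrial proteins, Mrpl9 fell in bone marrow doxycycline against bone marrow control (-0.69 ± 0.18, edgeR adjusted p = 0.0371) and the other 77 did not pass in any comparison; of all genes tested 2.61% were called lower in that contrast, and 0.0485 to 6.57% in either direction over the 7 comparisons. None of 32 genes of mitochondrial genome maintenance and expression passed in any of the 7 comparisons, nor did any of 42 further assembly factors, 21 genes of the citric acid cycle and pyruvate entry, 18 membrane and import genes, 3 further chain components or 9 tested regulators. Tfam, which packages and helps to transcribe the mitochondrial genome, was at -0.12 ± 0.17 in secondary disease against spleen control, at -0.02 ± 0.18 in spleen doxycycline against spleen control and at -0.45 ± 0.19 in bone marrow doxycycline against bone marrow control. Polrmt, the mitochondrial RNA polymerase, was at -0.31 ± 0.19, -0.28 ± 0.21 and 0.05 ± 0.21 in the same comparisons. The median of the ribosome list was 0.12 in secondary disease and 0.16 in spleen doxycycline, each against spleen control, below that of the mitochondrial coding genes in both.

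Nuclear members and length were looked at because secondary disease replicate 4 stood apart. Length here is that of the longest annotated transcript of a gene, and which transcript was expressed was not examined. The level in replicate 4 minus the mean of secondary disease replicates 1 to 3 was taken on the log2 scale. Its median was 0.87 for the 38 nuclear subunits of up to 1000 bases by that length and 0.67 for the 42 longer ones. Over 11046 genes with a mean of at least 50 counts the medians were 0.70 for the 652 up to 1000 bases and -0.13 for the 10394 longer ones. Spearman's rho between length and this difference was -0.35 across the 80 nuclear subunits and -0.30 across all 11046 genes, as a description of 1 library in which genes are not independent replicates. The 13 mitochondrial coding genes had medians of 1.13 (8 up to 1000 bases) and 1.04 (5 longer). The part of length in the values of replicate 4 was not tested.

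**Figure D5:**
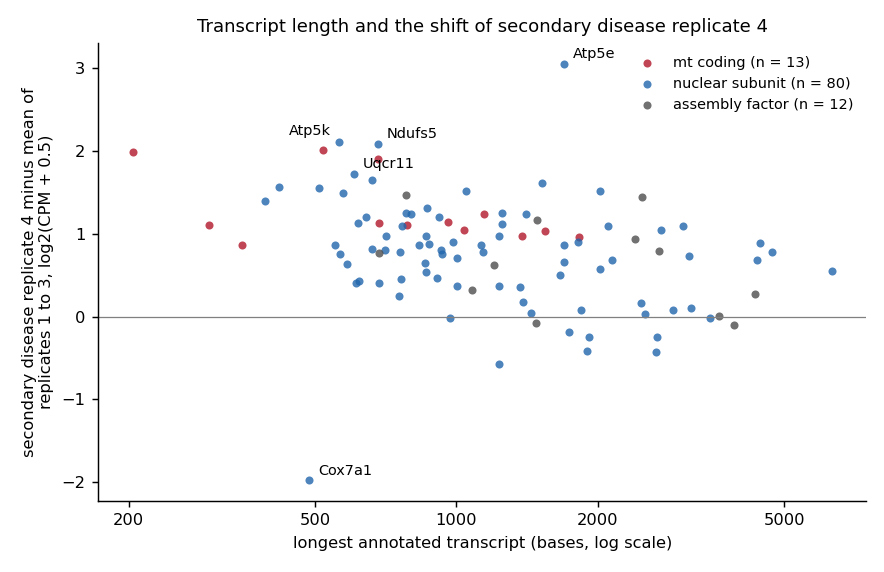
Length of the longest annotated transcript (bases, log axis) and the level in secondary disease replicate 4 minus the mean of replicates 1 to 3 (log2(CPM + 0.5)) for 13 mitochondrial coding genes, 80 nuclear subunits and 12 assembly factors. All mitochondrial points lie above 0, short nuclear transcripts have a median of 0.87 and long ones 0.67, and Cox7a1 is the lowest point.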

How the data were processed

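RNA of GFP-sorted cells was isolated with TRIzol and enriched with oligo-dT for NEBNext Ultra II libraries, per the labels' protocols; whether strand was kept is not given. Tools named, without versions, in the submitters' processing notes are RSEM, STAR, Trim Galore, MultiQC and FastQC, with the build GRCm38. The authors deposited expected counts per gene for all 16 libraries and a TPM file per library; TPM served only to order levels between genes. All columns were matched to libraries by the labels, 0 were left over, and no replicate pair was within sampling noise.

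Expected counts were rounded. The quasi-likelihood test was run in edgeR 4.0.16 under R 4.3.3 (robust fit, filterByExpr, TMM) over 14435 genes in 1 model with a mean per group. P-values are two-sided, adjusted by Benjamini-Hochberg over all genes tested, and called under 0.05. Standard errors were derived by dividing a log2 fold change, unsigned, by the root of its F. Medians per library used log2(CPM + 0.5). Counting error alone was not the limit, since replicates differed by more. Steps were tested on simulated counts. Alternatives were DESeq2 size factors, scaling without mitochondrial and haemoglobin genes, other count filters, fits of only the compared groups, a replicate block, omission of each library, DESeq2 1.42.0 and limma 3.58.1 (voom); summing nuclear copies with mitochondrial genes was added after the data were seen. Copies were genes with at least 95% identity over 80% of the length and 100 bases.

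Members, lists and comparisons were chosen with earlier results of these data known. Named were all mitochondrial coding genes, called members or otherwise the 4 with the smallest p, the highest TPM per complex, isoform families and members at the limit. Chosen after their values were seen were Atp5a1, Atp5e, Atp5k, Ndufa7, Ndufb4, Ndufb9, Ndufs1, Ndufs3, Ndufs5, Uqcrq, Sdhaf1, Tfam and Polrmt. Motifs were searched in RefSeq promoter sequences, and coordinates are from GENCODE M21 (GRCm38).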

Additional observations from a re-analysis of the deposited data

Results flagged for a closer look

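In secondary disease, the 1 group with 4 libraries, replicate 4 lay far from the other 3 for 16 of 57 results tested, that is, its gap to the nearest other library took more of the group's range than the critical value of Dixon's test for 4 values. Chance alone would place about 1 in 20 independent groups past this value. The results tested share the same libraries and are not independent, so that rate does not apply to their count. Of the 16, Atp5e, Atp5k, Ndufa7, Ndufs1, Ndufs3, Ndufs5 and Uqcrq were also chosen after their values were seen. Over all 107 members 41 lay past the critical value (38.3%), and over 11046 genes with a mean of at least 50 counts 3468 did (31.4%).

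Replicate 4 was the highest library for 15 of the 16. In complex I these were mt-Nd6 at 1064 CPM (the others 203 to 348), Ndufs3 at 68.0 (22.7 to 24.2), Ndufs5 at 125 (28.5 to 29.8), Ndufa7 at 89.3 (34.8 to 42.2) and the assembly factor Ndufaf2 at 20.4 (9.98 to 10.9). In complexes II and III they were Sdhaf4 at 17.1 (9.25 to 10.2), Uqcr11 at 228 (63.3 to 76.6) and Uqcrq at 224 (64.5 to 82.7). In complex IV they were Cox4i1 at 830.4 (352 to 430.1), Cox7a2 at 68.7 (19.4 to 24.7) and Cox7a2l at 132.1 (69.5 to 77.2). In complex V they were Atp5e at 84.2 (8.12 to 10.8), Atp5k at 241 (50.6 to 64.8) and Atp5g3 at 278 (185 to 197), and the mitochondrial rRNA mt-Rnr1 was at 1423 (279 to 471). Ndufs1, an iron-sulfur core subunit of complex I, was the exception: replicate 4 was the lowest at 116 CPM (the others 153 to 160). Ndufaf2, Cox7a2l and Ndufs5 share 29.2, 16.5 and 12.6% of the counts with near-identical genes.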

How the results depend on the processing

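Calls of members were few and moved with single libraries. In bone marrow doxycycline against control, 2 members were called; the count was 1 with no filter, 6 with the replicate block, 14 with only the groups compared, 6 with DESeq2 and 0 to 6 with 1 library left out. Of all genes 1.23, 13.6, 36.6 and 13.8% were called under the first 4 of these settings and 0.154 to 17.0% with 1 library left out, against 6.57% as reported. In spleen doxycycline against control 0 were called, 2 with the replicate block (Ndufb9 and Ndufa7; 2.59% of all genes) and 0 to 2 with 1 library left out (0 to 9.13%). In secondary disease against spleen control 0 were called, 4 with DESeq2 (5.24% of all genes) and 0 to 1 with 1 library left out (0.405 to 3.67%; mt-Cytb without spleen doxycycline replicate 3, edgeR adjusted p = 0.0469). In secondary disease against spleen doxycycline 1 was called, 3 with the replicate block (2.40% of all genes), 0 with only the groups compared (0%) and 0 to 6 with 1 library left out (0 to 8.94%). Between controls 0 were called and 3 with only the groups compared (Atp5g1, Cox7a1 and Ndufa7; 14.7% of all genes). Between doxycycline groups 0 were called, 1 with DESeq2 (3.03%) and 0 to 2 with 1 library left out (0.00663 to 7.18%), and for the interaction 0 were called and 0 to 2 with 1 library left out (0 to 4.32%). Counts of 6 in both places came without secondary disease replicate 4 (17.0 and 4.98% of all genes). The cause was not tested, except that leaving a library out leaves fewer samples.

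Sdhaf2 was also lost with no filter (log2 fold change 0.58, adjusted p = 0.0605), and Cox6b2 with only the groups compared (-1.80, adjusted p = 0.859). The mitochondrial minus nuclear median moved for the interaction, to between -0.12 and 0.67 with 1 library left out (0.41 over all). With nuclear copies counted, the mitochondrial share averaged 2.76% in spleen control and 2.56% in bone marrow doxycycline, against 2.36 and 2.19% without them. Under the other settings, 145 counts of called members stayed within 1.5 times, 174 of the median differences and 8 of the mean shares moved by less than the spread, and 57 log2 fold changes of called members kept direction and call; none reversed. The titles do not say whether a replicate number is shared between groups. Deviations of same-numbered libraries correlated between -0.27 and 0.16, and those of differently numbered ones between -0.22 and 0.27. Deviations within groups this small cannot decide whether the numbers pair the samples.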
